A study of Capra hircus with 20 samples.

Results

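The miR-34 and miR-449 family of microRNAs (miRNAs) was followed through postnatal development of the goat hypothalamus. The members were taken by name: every row called miR-34a, miR-34b, miR-34c, miR-449a, miR-449b or miR-449c, on either arm of its hairpin. This gave 9 of the 683 rows, listed with the goat prefix chi- (chi-miR-34c-5p, chi-miR-449a-5p) and written here without it: miR-34a, miR-34b-5p, miR-34b-3p, miR-34c-5p, miR-34c-3p, miR-449a-5p, miR-449b-5p, miR-449b-3p and miR-449c. Small RNA had been sequenced from hypothalamus of Jining grey goats at 1, 60, 120 and 180 days after birth, 5 biological replicates at each age per the series' design text. The animals were kept under the same conditions and carried no treatment or allele named in the labels, which give neither sex nor batch. No sequence of these miRNAs was used here.

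The mature 5p strands of this family share the same or a nearly identical seed, the short stretch that pairs with target mRNAs, so their targets overlap. They are best known from multiciliated cells, in which they repress the centriolar capping protein CP110 and Notch signalling and so permit basal bodies to dock and motile cilia to form. In the hypothalamus, multiciliated ependymal cells line the third ventricle and move cerebrospinal fluid along it. The miR-34 genes can also be induced by p53, and miR-34a is made in neurons. In the RefSeq gene table of goat assembly ARS1.2, MIR449A, MIR449B and MIR449C lie within the span of CDC20B, and MCIDAS, a master regulator of multiciliated cell fate, is the gene next to MIR449C. MIR34C and MIR34B are neighbours within the span of C15H11orf88, while MIR34A lies elsewhere.

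The unit of every level is RPM: read numbers after each library was brought to 1000000 miRNA reads. Recovered depth was 4018002 to 8324928 miRNA reads per library, so a floor of 3 reads stood at 0.360 to 0.747 RPM, a limit for counting error alone. Of the 9 members, 5 were tested, having 1 RPM or more in 5 libraries or more of the 20. These were miR-34c-5p (mean of the 20 libraries 539 RPM, rank 103 of 683), miR-34b-3p (188 RPM), miR-34a (33.4 RPM), miR-34c-3p (23.9 RPM) and miR-449a-5p (6.07 RPM, rank 317). The tests used limma on log2(RPM + 1) with 1 fit over all 414 tested miRNAs, and a miRNA was called when its Benjamini-Hochberg adjusted p was under 0.05. Replicate 2 of day 1 had the lowest depth and the lowest median Spearman correlation with the other libraries (0.873, next 0.918), so results are given without it where it matters. As markers of neurons, not of hypothalamus in particular, the summed neuron list held 114940 to 457762 RPM per library. In bulk tissue, fewer cells of a type and less RNA per cell cannot be told apart.

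miR-449a-5p, from the hairpin cluster within the CDC20B span, was the 1 member of the 5 tested that limma called; DESeq2 and edgeR also called rows of miR-34c, as given with their values. On day 1 it measured 8.45, 3.48, 31.6, 44.5 and 9.54 RPM in replicates 1 to 5. On day 60 the values were 1.72, 1.28, 1.38, 0.160 and 2.33 RPM. Every day-1 library lay above every day-60 library. On day 120 the same miRNA measured 0, 0.480, 1.5, 10.9 and 0.748 RPM, and on day 180 it measured 0.143, 1.29, 0.885, 0.243 and 0.870 RPM. The day-180 values again lay wholly below day 1, whereas replicate 4 of day 120, with 68 reads, overlapped the day-1 range. The 0 in replicate 1 of day 120 allows up to 0.367 RPM at its depth.

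The F test over the 4 ages called miR-449a-5p (limma adjusted p = 0.00411), beside 8 of 414 miRNAs called in all, or 1.93%. Between day 1 and day 60 it fell by 2.70 on the log2(RPM + 1) scale (SE 0.59, limma adjusted p = 0.0112), a 6.5-fold decrease with a 95% interval from 2.80 to 15.1. The size depends on the scale at these low levels: the log2 change to day 60 was -1.64 with a pseudocount of 5, -3.49 with 0.1 and -4.02 by DESeq2, and that to day 180 ran from -1.80 with a pseudocount of 5 to -4.88 by DESeq2. Among all tested miRNAs 3.86% were called in this comparison, 3.14% lower on day 60, and 2.42% lay lower on day 60 with no overlap between the groups. To day 120 it fell by 2.61 (SE 0.59, limma adjusted p = 0.015; 3.38% called in all), and to day 180 by 3.16 (SE 0.59, limma adjusted p = 0.00145; 3.38% called in all), an 8.96-fold decrease with an interval from 3.86 to 20.8. Of all tested miRNAs, 1.93% were called lower on day 120 and 2.66% on day 180, and 3.38% and 2.9% lay lower there with no overlap. Calls over all miRNAs on day 60 split into 3 higher and 13 lower, and into 12 and 28 after median-of-ratios scaling; those on day 120 split into 6 and 8, and into 11 and 32 with edgeR. At each later age 5 of 5 libraries lay below the day-1 mean of log2 values. Between days 60, 120 and 180 limma called no difference, for this member or for any of the 414 miRNAs (0% called, with 13, 20 and 3 at an unadjusted p under 0.05 for day 120 against 60, 180 against 60 and 180 against 120; edgeR and DESeq2 also called 0 each).

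Without replicate 2 of day 1 the log2 change was -3.13 to day 60, -3.04 to day 120 and -3.59 to day 180 (limma adjusted p = 0.00349, 0.0046 and 0.000506). The day-60 call ended without replicate 3 of day 1 (limma adjusted p = 0.0649) or replicate 4 of day 60 (limma adjusted p = 0.0617), where leaving out each of the 20 libraries gave 0.00312 to 0.0649, and the day-120 call ended when only those 2 ages were fitted (limma adjusted p = 0.0824). An exact permutation test of 5 against 5 libraries gave its smallest possible p, 0.00794, at days 60 and 180 and 0.0317 at day 120; adjusted over the 414 miRNAs these became 0.253 at day 60, 0.219 at day 180 and 0.202 at day 120.

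**Figure D1:**
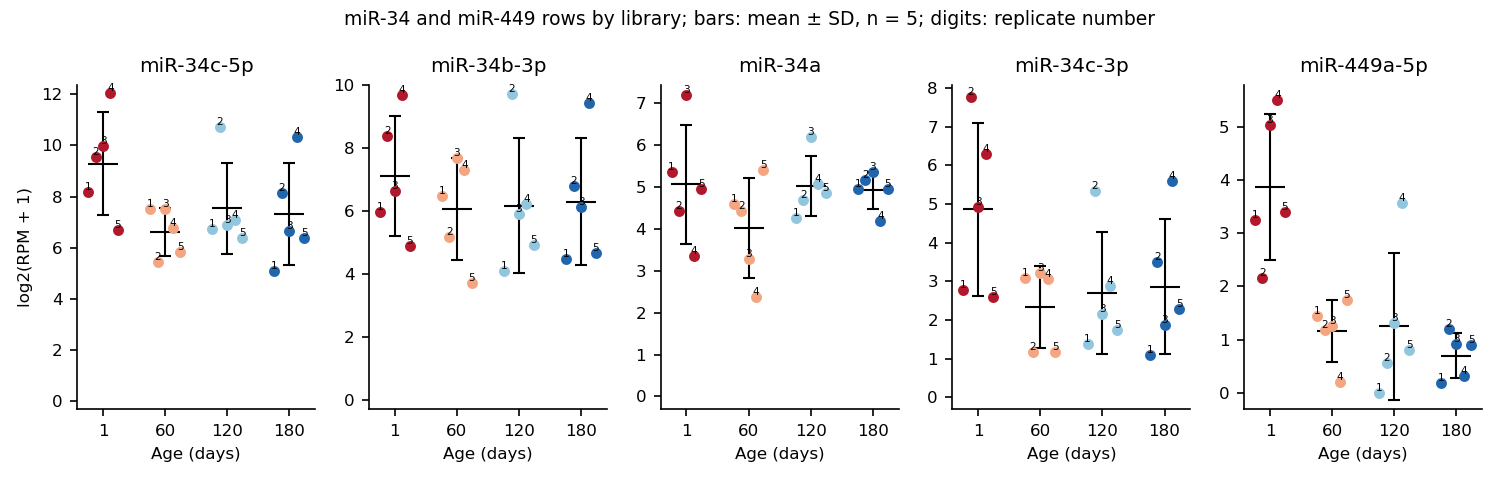
Level of the 5 tested members in each library, as log2(RPM + 1), against age in days, with points numbered by replicate and bars for the mean ± SD (n = 5). miR-449a-5p drops after day 1, while miR-34c-5p and miR-34b-3p share high points in replicate 4 of day 1, replicate 2 of day 120 and replicate 4 of day 180.

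The other miR-449 rows had few reads, most of them on day 1. miR-449b-5p had 17 reads over the day-1 group, in 3 of 5 libraries, and 0 reads in the 15 later libraries. Set against a floor of 3 reads over a group, the pooled day-1 level was 4.78 times the floor on day 60. It was 6.03 times the floor on day 120 and 5.78 times on day 180. These ratios take the 17 reads as exact, so they are no lower bounds. Of the 17 reads, 8 came from replicate 3, 7 from replicate 4 and 2 from replicate 1, a spread the ratios leave out. In order of age, miR-449c had 10, 0, 1 and 0 reads and miR-449b-3p had 5, 3, 0 and 1 reads. These rows were too low to be tested. Their near-identical hairpins can share reads, and how such reads were divided is not given in the sources used here.

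miR-34c-5p had the highest mean level of the family: on day 1 it held 56.9% to 81.5% of the summed level of the 9 members, and over all libraries 38.6% to 81.5%. On day 1 it measured 292, 755, 1007, 4185 and 101 RPM in replicates 1 to 5, and on day 60 it measured 181, 43.0, 182, 107 and 56.3 RPM. On day 120 the values were 104, 1662, 117, 135 and 82.2 RPM, and on day 180 they were 32.8, 284, 101, 1279.5 and 83.4 RPM. The medians were 755, 107, 117 and 101 RPM. Of the day-1 libraries, 4 lay above all day-60 libraries, and replicate 5 lay within them. On day 120 and on day 180, 1 library exceeded 4 of the 5 day-1 libraries, and the other 4 lay below 4 of the 5.

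limma called no difference of miR-34c-5p between ages. From day 1 to day 60 its log2 difference was -2.67 (SE 0.93, limma adjusted p = 0.0831), with a 95% interval of the difference from -4.58 to -0.77. On day 120 it was -1.74 (limma adjusted p = 0.262) and on day 180 it was -1.96 (limma adjusted p = 0.215). Without replicate 4 of day 1 the differences were -1.99, -1.05 and -1.28 at days 60, 120 and 180. Without replicate 2 of day 120 the day-120 difference was -2.52, and day 180 reached -2.71 without its replicate 4. The difference between both members' changes was 0.03 log2 units to day 60, 0.88 to day 120 and 1.20 to day 180, with exact permutation p of 0.976, 0.54 and 0.349 and adjusted p of 0.976, 0.857 and 0.857 over the 6 pairs of ages. The day-60 value depends on the pseudocount, at -0.98 with 5 and 0.80 with 0.1. A call for miR-449a-5p and none for miR-34c-5p therefore does not show that they changed unequally. The count models did call the day-60 difference of miR-34c-5p, with an adjusted p of 0.0334 by edgeR (log2 -3.45) and 0.00728 by DESeq2 (log2 -3.45). Over the 4 ages DESeq2 gave an adjusted p of 0.0483 for miR-34c-5p and 0.0497 for miR-34c-3p, against 0.290 and 0.269 by limma's F test. limma also called the day-60 difference of miR-34c-5p without replicate 5 of day 1 (adjusted p = 0.0303). For that difference, the highest limma adjusted p with a library left out was 0.178.

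**Figure D2:**
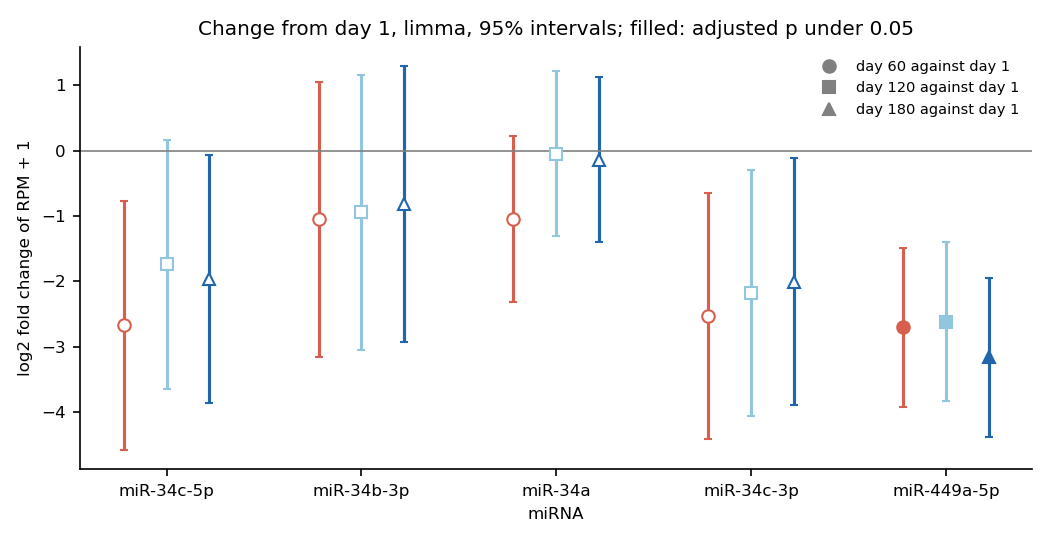
Difference from day 1 at days 60, 120 and 180 for the 5 tested members, on the log2(RPM + 1) scale, with limma 95% intervals; filled symbols have an adjusted p under 0.05. The 3 filled symbols belong to miR-449a-5p, at -2.70, -2.61 and -3.16, and the widest intervals belong to miR-34b-3p.

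miR-34b-3p is the abundant strand of the neighbouring hairpin. It measured 61.8, 331, 99.0, 818 and 28.8 RPM on day 1, and 87.0, 35, 202, 156 and 12.1 RPM on day 60. On day 120 it measured 16, 842, 58.5, 74.4 and 29.1 RPM, and on day 180 it measured 21.2, 111, 68.3, 693 and 24.2 RPM. All ages overlapped. Against day 1 the log2 differences were -1.05 on day 60, -0.94 on day 120 and -0.81 on day 180, with limma adjusted p of 0.618, 0.673 and 0.688. The day-60 interval reached from -3.16 to 1.06, so neither a large fall nor a modest rise can be told from no change.

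miR-34c-3p, the minor strand of the miR-34c hairpin, measured 5.81, 216, 29.3, 78.0 and 5.07 RPM on day 1. On day 60 it measured 7.48, 1.28, 8.27, 7.36 and 1.24 RPM. On day 120 it measured 1.59, 39.2, 3.44, 6.40 and 2.37 RPM, and on day 180 it measured 1.15, 10.3, 2.65, 47.2 and 3.85 RPM. Its highest library on day 1 was replicate 2, not replicate 4, which was the highest for miR-34c-5p. The log2 difference from day 1 to day 60 was -2.53 (SE 0.92, limma adjusted p = 0.0892). It was called by edgeR (adjusted p = 0.0482), by DESeq2 (adjusted p = 0.0187) and by limma without replicate 5 of day 1 (adjusted p = 0.0374). The limma adjusted p reached 0.225 without replicate 2 of day 1, when the difference was -1.81. The differences of -2.17 to day 120 (limma adjusted p = 0.174) and -2.0 to day 180 (limma adjusted p = 0.215) were not called.

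The miR-34b and miR-34c hairpins were used from opposite arms. In the miR-34b hairpin the 3p arm held 97.4% to 100% of both arms' level in every library. miR-34b-5p had 101 reads over all 20 libraries and was too low in RPM to be tested. In the miR-34c hairpin the 3p arm was the minor one, with 1.5% to 6.42% in 19 libraries. Replicate 2 of day 1 was apart at 22.2%, or 867 of 3899 reads (exact Clopper-Pearson 95% interval 20.9% to 23.6%, for counting error only, since amplified reads are not independent molecules). This was 7.10 times the median share of miR-34c, and 15 of 115 hairpins with both arms present showed a share of their minor arm at least 4-fold above its own median there, against at most 11 in any other library. The median share of the minor arm over the 114 other hairpins was 4.71% in that library, within the range of 2.72% to 6.16% of the rest. The part of that library's depth in this was not tested.

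**Figure D3:**
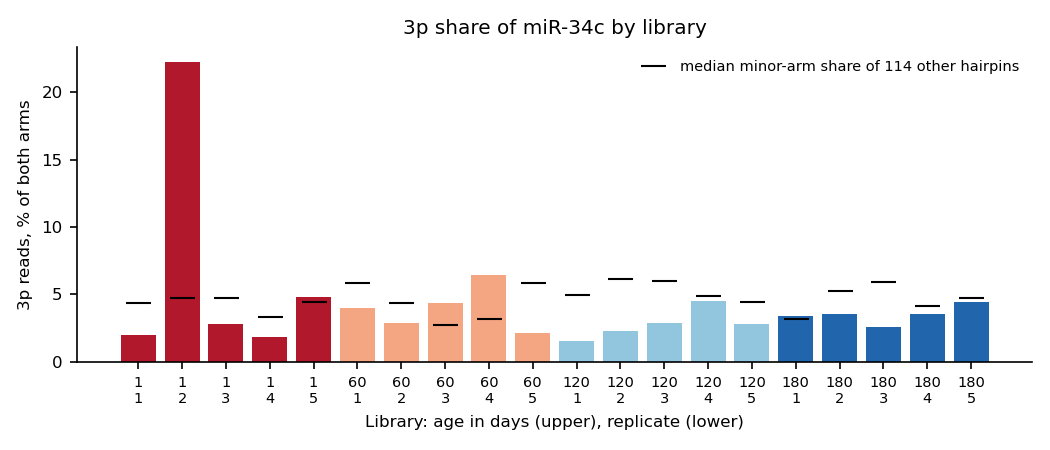
Share of the 3p arm in the reads of the miR-34c hairpin, in percent, for each of the 20 libraries; black ticks give the median share of the minor arm over 114 other hairpins. Replicate 2 of day 1 stands at 22.2% and the other 19 libraries at 6.42% or less.

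The 3 abundant rows of the miR-34b and miR-34c locus were among the most variable miRNAs of the table within an age. The within-age SD of log2(RPM + 1) was 1.94 for miR-34b-3p, 1.74 for miR-34c-5p and 1.71 for miR-34c-3p, against a median of 0.82 over the 414 tested miRNAs. They ranked 3, 4 and 5 of 414. A numbered prediction (2.21) and miR-134 (1.94) ranked above them. miR-449a-5p (1.04, rank 86) and miR-34a (1.01, rank 94) were closer to the middle. Replicate 4 of day 1, replicate 2 of day 120 and replicate 4 of day 180 were the 3 highest libraries for both miR-34c-5p and miR-34b-3p. In these 3 the 9 members summed to 5137, 2572 and 2039.6 RPM, against a median of 267 RPM over the 20 libraries.

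The high miR-34b and miR-34c libraries were not the high miR-449a-5p libraries at later ages. Replicate 4 of day 1 was highest in miR-34c-5p and in miR-449a-5p (44.5 RPM). Replicate 2 of day 120 and replicate 4 of day 180 held only 0.480 and 0.243 RPM of miR-449a-5p, from 4 and 2 reads. In them miR-34c-5p exceeded miR-449a-5p 3458-fold and 5269.5-fold, ratios that rest on those few reads, against 10.6-fold to 217-fold on day 1. The opposite case was replicate 4 of day 120, with 10.9 RPM of miR-449a-5p at an ordinary 135 RPM of miR-34c-5p.

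The summed levels of the marker lists were ranked in the 3 high libraries, 1 being the highest of 20. For replicate 4 of day 1, replicate 2 of day 120 and replicate 4 of day 180 in that order, the choroid plexus list (3 rows, carried by miR-204-5p) ranked 18, 5 and 7. The epithelium and pituitary list ranked 20, 11 and 8, the erythroid list 20, 2 and 17, the oligodendrocyte list 20, 14 and 18, the p53 list 20, 17 and 19, and the neural stem and progenitor list 17, 11 and 19. The cilium assembly list, carried by miR-129-5p, ranked 5, 6 and 4, and the neuron list 4, 9 and 1. The cilium and neuron lists thus stood above their medians in all 3, and the p53, oligodendrocyte and progenitor lists below. By mean RPM over the 20 libraries, the p53 list was carried by miR-143-3p (63471, next miR-16a-5p at 3615). The neuron list was carried by miR-9-5p (174740) and miR-7-5p (83586, next miR-128-3p at 16474). The ranks of these sums mainly follow those rows. Replicates 3 and 2 of day 1, which ranked 4 and 5 in miR-34c-5p, did not repeat this pattern. In that order the p53 list ranked 5 and 11, the oligodendrocyte list 9 and 17 and the progenitor list 18 and 2. The cilium list ranked 10 and 1 and the neuron list 5 and 17. The part of these cell types in the high levels was not tested. For choroid plexus only miR-204 and miR-211 had rows; miR-448 and the other miRNAs of the HTR2C host gene were not analysed here.

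Correlations between members were computed over the 20 libraries for all 10 pairs of tested members, on log2(RPM + 1) and on deviations from the age means, 20 relations in all. The pair of miR-34c-5p with miR-449a-5p had been planned and the other pairs were added after the levels were seen. miR-34c-5p and miR-34b-3p, from neighbouring hairpins, had a Pearson r of 0.87 (permutation p = 1e-05, the smallest the resampling can give, adjusted p = 5e-05) and a Spearman rho of 0.85 (permutation p = 1e-05). Without the 2 libraries farthest from the median of miR-34c-5p, r was 0.79. On deviations from the age means r was 0.91 (permutation p = 1e-05, adjusted p = 5e-05) and rho 0.88 (permutation p = 5e-05), and r was 0.85 without the 2 farthest. Both arms of miR-34c had an r of 0.90 (permutation p = 1e-05, adjusted p = 5e-05), a rho of 0.92 (permutation p = 1e-05) and an r of 0.89 without the 2 farthest.

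miR-34c-5p and miR-449a-5p, made from separate loci, had a relation that depended on single libraries. Over the 20 libraries r was 0.48 (permutation p = 0.0327, adjusted p = 0.0934) and rho 0.37 (permutation p = 0.109, adjusted p = 0.216), and r was 0.39 without the 2 farthest libraries (permutation p = 0.111). Adjusted over the 2 planned relations alone, p was 0.0654. This adjusted permutation p was under 0.05 in 4 of 20 runs with 1 library left out. It was 0.0166 without replicate 4 of day 180 and 0.0169 without replicate 2 of day 120. It reached 0.039 without replicate 5 of day 1 and 0.0449 without replicate 4 of day 120. Without replicate 4 of day 1 it was 0.611 (r = 0.25). On deviations from the age means r was 0.17 (permutation p = 0.555, adjusted p = 0.653), rho was 0.25 (permutation p = 0.323, adjusted p = 0.404), and r was 0.40 without the 2 farthest (permutation p = 0.146).

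**Figure D4:**
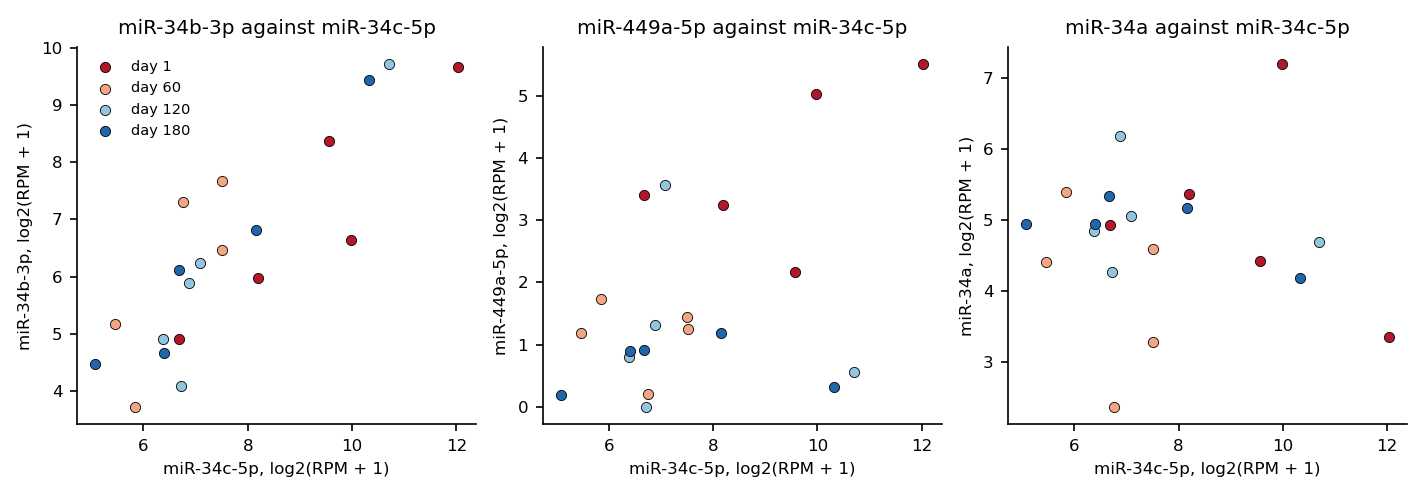
miR-34b-3p, miR-449a-5p and miR-34a against miR-34c-5p in the 20 libraries, all as log2(RPM + 1), coloured by age in days. miR-34b-3p is higher where miR-34c-5p is higher (r = 0.87), miR-449a-5p is high mainly on day 1, and miR-34a shows no trend (r = -0.07).

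miR-34a was called at no age by limma. It measured 40.1, 20.4, 146, 9.26 and 29.6 RPM on day 1, and 23.1, 20.3, 8.73, 4.16 and 41.2 RPM on day 60. On day 120 it measured 18.2, 24.9, 71.7, 32.3 and 27.8 RPM, and on day 180 it measured 29.8, 34.9, 39.6, 17.2 and 29.8 RPM. All ages overlapped, and the SD was smallest on day 180 (8.36 RPM). Replicate 4 of day 1, the highest for miR-34c-5p, was the lowest of its age for miR-34a. The log2 difference to day 60 was -1.04 (SE 0.61, limma adjusted p = 0.357, interval from -2.31 to 0.22), to day 120 it was -0.04 and to day 180 it was -0.14, the last becoming 0.10 after median-of-ratios scaling. Its Pearson r with miR-34c-5p was -0.07 (permutation p = 0.756, adjusted p = 0.840) and its rho -0.18 (permutation p = 0.452), with an r of 0.16 without the 2 farthest libraries. With miR-34b-3p r was -0.36 (permutation p = 0.117, adjusted p = 0.233), rho -0.41 (permutation p = 0.0722), and r -0.29 without the 2 farthest. On deviations from the age means r with miR-34c-5p was -0.31 (permutation p = 0.221, adjusted p = 0.345). With miR-34b-3p that r was -0.47 (permutation p = 0.0415, adjusted p = 0.104) and rho -0.41 (permutation p = 0.103).

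The miRNAs most like each member in pattern were ranked by Pearson r over the 20 libraries among 356 known miRNAs, as a description. Nearest to miR-34c-5p were miR-34c-3p (r = 0.90), miR-34b-3p (0.87), miR-29c-5p (0.66), miR-493-3p (0.63) and miR-129-3p (0.61, mean 388 RPM), a miRNA that also represses CP110. miR-449a-5p itself ranked 24 on that list and miR-34a ranked 258. On deviations from the age means the nearest were miR-34b-3p (r = 0.91), miR-34c-3p (0.87), miR-671-5p (0.65), miR-495-3p (0.65) and miR-499-5p (0.59).

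Nearest to miR-449a-5p were miR-363-3p (r = 0.71), miR-301a-5p (0.71), miR-1271-5p (0.65), miR-181b-3p (0.64) and miR-30a-5p (0.62). miR-34c-5p ranked 20 there. On deviations from the age means the nearest were miR-100-3p (r = 0.65), miR-181b-3p (0.59), miR-374a-3p (0.58), miR-30e-3p (0.54) and miR-592 (0.53), of which miR-100-3p and miR-181b-3p averaged 1.48 and 1.59 RPM, and miR-34c-5p ranked 87. Of the 2 members, only miR-34c-5p had other members among its nearest 5.

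In the lists of related miRNAs, 1 member was called against day 1. Of 5 tested miRNAs linked to cilium assembly (both arms of miR-129, miR-183, miR-96 and miR-182) 0 were called at any later age, and 4 of 5 lay below 0 on day 60 (53.4% of all tested miRNAs did), with a median log2 difference of -0.28 against -0.04 over all tested miRNAs. On day 180 the list median was -1.03 against -0.25. That list value is the difference of miR-96, whose mean on day 180 was 0.356 RPM, near the floor of 3 reads. Median-of-ratios scaling put the medians over all miRNAs at 0.07 on day 60 and -0.03 on day 180. The list medians were not recomputed on that scaling, so they cannot be set against these values. miR-129-3p measured 899 ± 1233 RPM on day 1 (SD, n = 5) and 206 ± 86.6 RPM on day 60, a difference that did not pass (limma adjusted p = 0.287). miR-129-5p measured 11458 ± 9765 and 9262 ± 7987 RPM, and miR-182 137 ± 143 and 126 ± 74.9 RPM. On the log2 scale miR-182 was the 1 row of the 5 above 0 on day 60, at 0.46. In the choroid plexus list 0 of 3 were called and 2 of 3 lay below 0 on day 60. Its miR-204-5p, the main miRNA of choroid plexus epithelium, measured 3105 ± 2158 RPM on day 1 and 6429 ± 3784 RPM on day 60 (limma adjusted p = 0.237). Its miR-204-3p and miR-211 had log2 differences of -0.01 and -0.21 on day 60 and -0.34 and -0.83 on day 180, none called.

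Of 11 tested p53-induced miRNAs other than miR-34, 0 were called, and 5 lay below 0 on day 60 (median 0.01). miR-143-3p measured 79640 ± 77769 RPM on day 1 and 51702 ± 44599 RPM on day 60, and miR-192-5p measured 749 ± 409 and 729 ± 308 RPM. Of 18 tested miRNAs of neural stem and progenitor cells, 1 was called lower at each later age, miR-363-3p of a miR-17-92 paralog, which measured 108 ± 48.0 RPM on day 1, 29.7 ± 9.73 RPM on day 60, 27.5 ± 2.12 RPM on day 120 and 16.4 ± 3.42 RPM on day 180. Over all tested miRNAs 3.14%, 1.93% and 2.66% were called lower at days 60, 120 and 180, so 1 of 18 is near the background. On day 60, 11 of 18 lay below 0, with a median of -0.33, beside 53.4% of all tested miRNAs. In the lists of neurons (5 of 9 below 0), oligodendrocytes (1 of 3), epithelium and pituitary (2 of 4) and erythroid cells (3 of 3), 0 were called. The summed erythroid list ran from 90.5 to 1552 RPM on day 1 (median 264) and from 149 to 290 RPM on day 60 (median 183). It ran from 236 to 1338 RPM on day 120 (median 545) and from 182 to 349 RPM on day 180 (median 271). The part of this list in the level of miR-449a-5p was not tested.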

How the data were processed

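The authors deposited 1 table of 683 miRNA rows by 20 libraries; per the file headers the unit is TPM, but the deposited values are RPM, since low values in a column are whole multiples of 1 step and columns fall short of 1000000 by at most 16.2. The kits, per the labels' protocols, were Trizol for RNA and a NEBNext multiplex set for small RNA libraries; per the submitters' processing notes, Bowtie was used. The sources used here name no genome build, miRNA catalogue or counter. Values below 1000 reads came out whole after division by that step in 100% of cases (tolerance 0.1 read).

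A miRNA was tested at 1 RPM or more in at least 5 libraries (414 rows). limma 3.58.1 (R 4.3.3) was fitted on log2(RPM + 1) with 4 age means, a mean-variance trend and no covariate; p-values were two-sided and Benjamini-Hochberg adjusted over the 414. Fold changes on this scale understate those of low miRNAs such as miR-449a-5p. Recovered reads were tested with edgeR 4.0.16 (quasi-likelihood, TMM) and DESeq2 1.42.0 as alternatives. Other alternatives were pseudocounts of 0.1 and 5, no filter, a filter at 10 RPM, median-of-ratios scaling, the replicate number as a block, only the 2 ages compared, exact permutation, and each library left out. Correlation tests used 100000 resamples, within ages for deviations. Text names all members, the 5 nearest miRNAs by r, and, of each list, called members and examples among the 4 most abundant. The members and lists were chosen with earlier results of these data known. The series' design text calls the libraries biological replicates, and the labels name no animals, so p-values measure the spread between these samples.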

Additional observations from a re-analysis of the deposited data

Results flagged for a closer look

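In 27 groups of 5 libraries (a member at an age, with at least 3 reads in its highest library), 11 had 1 library whose gap to the next exceeded 0.71 of the group's range, Dixon's 95% limit; chance marks about 1 in 20 groups of normally distributed values, which RPM are not, and rows of 1 locus are not independent. On log2(RPM + 1), an alternative added after the values were seen, 2 of the 27 groups exceeded the limit: miR-34c-5p and miR-34b-5p on day 120. The 11 on RPM are therefore no count of unusual libraries. miR-34c-5p was marked in replicate 4 of day 1 (4185 RPM, next 1007), replicate 2 of day 120 (1662 RPM, next 135) and replicate 4 of day 180 (1279.5 RPM, next 284). The same day-120 library was marked for miR-34b-3p (842 RPM, next 74.4), miR-34c-3p (39.2 RPM, next 6.40) and miR-34b-5p (3.24 RPM, next 0.480). The same day-180 library was marked for miR-34b-3p (693 RPM, next 111) and miR-34c-3p (47.2 RPM, next 10.3). miR-34a was marked in replicate 3 of day 1 (146 RPM, next 40.1) and replicate 3 of day 120 (71.7 RPM, next 32.3). miR-449a-5p was marked in replicate 4 of day 120 (10.9 RPM, next 1.5).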

How the results depend on the processing

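The calls of miR-449a-5p against day 1 kept their direction in each alternative run. None could be computed under the 10 RPM filter, which removes miR-449a-5p. The exact test adjusted over all miRNAs passed none. At days 60 and 180 the exact p of miR-449a-5p was already the smallest possible (0.00794), so that test cannot decide the calls at those ages. Calls over all miRNAs moved more, and the cause was not tested. The F test called 8 miRNAs, against 30 with median-of-ratios scaling, 39 with edgeR and 90 with DESeq2, and 5 (without day 1 replicate 2) to 16 (without day 1 replicate 4) with 1 library left out. Day 60 against day 1 gave 16, against 9 unfiltered, 40, 57 and 86 by those 3 methods and 4 from the 2 ages alone, and 2 (without day 60 replicate 4) to 43 (without day 1 replicate 4). Day 120 gave 14, against 36, 43, 74 and 4, and 7 (without day 120 replicate 3) to 29 (without day 1 replicate 5). Day 180 gave 14, against 7 with pseudocount 0.1, 8 unfiltered, 5 at 10 RPM, then 23, 22, 61 and 5, and 5 (without day 180 replicate 1) to 31 (without day 1 replicate 5). With the replicate number as a block the counts were 9, 21, 18 and 14; later pairs of ages gave 0. The numbers do not pair libraries: 11 of 30 same-number correlations exceeded 0.1 (lowest -0.71), and 4 of 20 libraries correlated best with their own number. The block also called miR-34c-3p at day 60 (limma adjusted p = 0.0450).

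Uncalled differences near 0 changed sign. For day 180 against day 120, miR-34c-5p became 0.26 with edgeR and 0.20 with DESeq2, and miR-34a 0.099 with median-of-ratios scaling, 0.00376 with edgeR and 0.031 with DESeq2; against day 1, day 180 of miR-34a became 0.095 with median-of-ratios scaling. miR-449a-5p at day 120 against 60 became -0.29 with pseudocount 0.1. With single libraries left out, miR-34c-5p ranged from -0.039 to 1.27 (day 180 against 60) and -0.97 to 0.56 (180 against 120). For miR-34b-3p the ranges were -0.78 to 0.63 (120 against 60), -0.55 to 0.69 (180 against 60) and -0.66 to 1.02 (180 against 120). For miR-34a they were -0.47 to 0.49 (120 against 1), -0.56 to 0.40 (180 against 1) and -0.28 to 0.20 (180 against 120). For miR-34c-3p they were -0.30 to 0.69, -0.16 to 0.97 and -0.51 to 0.83 over the 3 later pairs of ages. For miR-449a-5p they were -0.49 to 0.40 (120 against 60) and -0.86 to 0.031 (180 against 120). The difference between the changes of miR-34c-5p and miR-449a-5p became -0.98, -0.21 and -0.12 at days 60, 120 and 180 against day 1 with pseudocount 5. Left-out libraries gave -0.51 to 0.52 (60 against 1), -0.081 to 1.57 (120 against 1), -0.11 to 1.55 (120 against 60) and -0.52 to 1.28 (180 against 120). Their correlation became 0.53 with pseudocount 5 (permutation adjusted p = 0.0324 over the 2 planned relations), and ranged from 0.25 (without day 1 replicate 4) to 0.59 (without day 120 replicate 2), and within ages from -0.036 to 0.31.

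Low levels kept miR-449b-5p, miR-449b-3p and miR-449c (17, 9 and 11 reads in all) out of the tests. They reached 1 RPM in 1, 0 and 0 libraries in that order, where 5 were needed. The later levels of miR-449a-5p rest on 0 to 68 reads per library.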
